A study of Mus musculus with 3 samples.

Results

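Interferon-stimulated genes are the genes that cells switch on after an interferon has bound its receptor. A list of 37 such mouse genes was followed through RNA-seq of spleen B cells, and each was found by its gene symbol in a table of 27088 genes. Of the 37 genes, 36 had a row in the table and Oas1a had none. Expression was read as FPKM (fragments scaled to gene length and library size) and as read counts. A filter kept genes that reached an FPKM of 1 in either library and were not at 0 in the other. It was passed by 31 of the 36 genes and by 12433 genes of the whole table. Ifit1, Rsad2, Ifih1, Iigp1 and Oasl2 were under an FPKM of 1 in both libraries and are described without being counted among the 31.

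The mice were female BALB/c, 6 weeks old at the start, and the labels give 13 weeks as the age of the samples. Both groups analysed here, PBS and SJMHE1, carried the same model of allergic rhinitis. Ovalbumin (OVA, 10 μg) with 2 mg of Al(OH)3 was injected intraperitoneally on days 0, 7 and 14, and 100 μg of OVA was then given into the nose from day 21 to 27 and from day 29 to 35. On days 0, 14 and 28 the PBS group received PBS under the skin, whereas the SJMHE1 group received 10 μg of SJMHE1, a peptide from the HSP60 of Schistosoma japonicum, emulsified in incomplete Freund's adjuvant. The PBS injections held no adjuvant, so the peptide and the adjuvant cannot be told apart. On day 36 splenic B cells were isolated by flow sorting, and material from 3 mice was mixed into 1 library per group. The library of the Control group of healthy mice was not analysed here. With 1 pooled library on each side there is no replicate error and no test. Each ratio below describes 2 libraries, and the 95% interval given with it covers counting error only.

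Interferons are cytokines that warn cells of virus and other microbes. Type I interferons act through the Ifnar1 and Ifnar2 receptor chains and the kinases Jak1 and Tyk2 to form a complex that holds Stat2 and Irf9 and binds the interferon-stimulated response element (ISRE) in promoters. Interferon-γ, made mainly by T cells and NK cells, acts through Ifngr1, Ifngr2, Jak1 and Jak2 and leads to the GAS element in promoters. The genes switched on in this way degrade viral RNA, block viral translation, sense foreign nucleic acid or attack the vacuoles of intracellular microbes. In B cells the same signals are known to affect antigen presentation and antibody class.

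The libraries held 48267168 counts (PBS) and 51280237 counts (SJMHE1). The B cell label was checked against 10 markers, all of them measured, which summed to an FPKM of 3096 in PBS and 3249 in SJMHE1. Cd79a, a chain of the B cell receptor, was the highest of them at 835 in both. Cr2, the complement receptor of marginal zone and follicular B cells, was at 136 in PBS and 218 in SJMHE1. Markers of other cell types were present at lower levels and differed between the libraries. The 12 T cell markers summed to an FPKM of 45.3 in PBS and 11.7 in SJMHE1, and all 10 that passed the filter were lower in SJMHE1 with a median log2 ratio of -2.13. Of these, Cd8b1, Cd28, Cd8a, Cd3e and Cd3d passed the filter through PBS alone, which lowers that median. The log2 ratios of the others ran from -2.48 for Trac to -1.17 for Lat. Trbc2, a T cell receptor constant gene, was the highest of the 12 markers, at an FPKM of 14.6 and 3.46. For NK cells the 8 markers summed to 14.7 and 6.72, led by the granzyme Gzma at 6.57 and 2.96. The 6 plasmacytoid dendritic cell markers, which mark the cells that make much type I interferon, summed to 13.6 and 10.4. Pacsin1 was their highest at 6.77 and 5.99, the lectin receptor Siglech was at 2.14 and 0.39, and Smim5 alone was higher, at 1.44 and 2.71. Conventional dendritic cell markers summed to 148 and 84.0, most of it from the chemokine receptor Ccr7 at 142 and 80.5, which B cells also express. The transcription factor Batf3, with 28 counts in PBS and 0 in SJMHE1, was the only marker of any list at 0 in a library. Macrophage and monocyte markers summed to 127 and 71.0, led by the lysozyme Lyz2 at 88.8 and 37.4. Most of that difference was in Lyz2, and 6 of the 12 were higher, among them the complement gene C1qc at 0.95 and 2.19 and the endotoxin receptor Cd14 at 1.3 and 2.68. Neutrophil markers summed to 362 and 454 through S100a9 at 196 and 266 and S100a8, while 6 of the 10 were lower. All 8 erythroid markers were higher, from a sum of 153 to 201, with the globin Hbb-bs at 49.2 and 62.3. In such bulk samples, fewer cells of a type and less RNA per cell cannot be told apart. The part of these other cells in the ratios of the interferon-stimulated genes was not tested.

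The element through which many of these genes answer interferon can be read in their promoters. RefSeq promoters on GRCm38.p6, 250 bases before to 50 bases after the start of the gene, were at hand for 26 of the 37 genes. The core of the ISRE was searched as GAAANNGAAA on both strands, and the core of the GAS element as TTCNNNGAA. An ISRE core stood in the promoters of 16 of the 26 genes (61.5%), against 3.99% of all 27025 genes with a promoter of the same length (3.44% of 32851 promoters). A GAS core stood in 8 of the 26 (30.8%), against 9.55% of all genes (8.30% of promoters). The letters of the cores can overlap, as they do for Bst2. Both elements were found for Bst2, Gbp7, Igtp and Oas1a. Below are the stretches around the ISRE core for 6 genes. Each holds 30 bases to either side, except that the stretch of Trim30a is cut at the start of the gene. Genes were eligible if they passed the filter, held the core upstream of the start and had the whole printed stretch outside every annotated exon. The top 3 and the bottom 3 of these by SJMHE1 to PBS ratio are shown. The stretches are written 5′ to 3′ on the strand of the gene, with the bases of the core in capitals. Isg15 is at chr4:156200845-156200926 (minus strand), Trim30a at chr7:104465194-104465259 (minus), Ifit3 at chr19:34583343-34583446 (plus), Oas3 at chr5:120777695-120777764 (minus), Bst2 at chr8:71537557-71537632 (minus) and Gbp7 at chr3:142530253-142530322 (plus).
Isg15: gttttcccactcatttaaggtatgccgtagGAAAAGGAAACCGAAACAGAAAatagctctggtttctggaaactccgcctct
Trim30a: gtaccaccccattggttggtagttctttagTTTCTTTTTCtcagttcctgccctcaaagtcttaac
Ifit3: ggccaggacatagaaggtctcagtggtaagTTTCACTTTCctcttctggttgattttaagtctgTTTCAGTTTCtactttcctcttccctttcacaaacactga
Oas3: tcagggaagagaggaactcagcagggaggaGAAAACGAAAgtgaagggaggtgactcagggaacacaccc
Bst2: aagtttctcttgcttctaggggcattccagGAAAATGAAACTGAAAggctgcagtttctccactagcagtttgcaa
Gbp7: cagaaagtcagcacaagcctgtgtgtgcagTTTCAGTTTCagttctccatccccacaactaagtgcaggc
Isg15 carried 3 overlapping matches, the first of them beginning 78 bases and the last 66 bases before the start. In the promoters shown for Trim30a, Oas3 and Gbp7 a single match began 36, 75 and 53 bases before the start. Ifit3 had separate matches beginning at 156 and 122 bases, and Bst2 overlapping ones at 130 and 124 bases. These 6 genes were picked for holding the core, and of the genes with the most extreme ratios, Ifi44 lacked it and Oas2 and Dhx58 had no promoter at hand. Of the genes that passed the filter, the 12 with an ISRE core had a median log2 ratio of 0.07, with 7 above 0, and the 9 whose promoter lacked it had a median of 0.10, with 5 above 0. In the whole table, 47.7% of the genes that passed the filter were above 0. A match is a stretch of letters and not a measured binding site.

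Compared with the PBS library, the SJMHE1 library held the interferon-stimulated genes at similar levels, with modest differences in both directions. The 36 genes summed to an FPKM of 313 in PBS and 331 in SJMHE1, a 1.05-fold difference. Of the 31 genes that passed the filter, 20 were higher in SJMHE1, 10 were lower and Ifit2 was equal. That makes 64.5% higher, against 47.7% of all genes and 48.4% of protein-coding genes. The median log2 ratio was 0.10 over the 31 genes and -0.01 over all genes that passed the filter. The ratios of the 31 genes lay between -0.51 and 0.61, inside the span from the 5th to the 95th percentile of all genes, -0.82 to 0.64.

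None of the 31 genes reached a log2 ratio of 1 in either direction, a size that 2.43% of all genes passed upward and 3.57% passed downward. Past 0.5 upward were 2 genes, Ifi44 and Oas2 (6.45%), against 7.28% of all genes, and past 0.5 downward was 1 gene, Dhx58 (3.23%), against 9.82%. Ifi44 passed the filter through the SJMHE1 library alone. Where both libraries had to reach an FPKM of 1, 1 of 30 genes was past 0.5 upward, against 4.83% of all genes. In these settings the shares are near or under those of the whole table. With counts scaled by DESeq2 size factors, however, 5 of the 31 were past 0.5 upward, against 8.20% of all genes. The counting interval lay wholly above 0 for 14 of the 31 genes (45.2%), where 30.9% of all genes did so. It lay wholly below 0 for 7 (22.6%), where 34.4% of all genes did so, and it held 0 for 10.

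**Figure D1:**
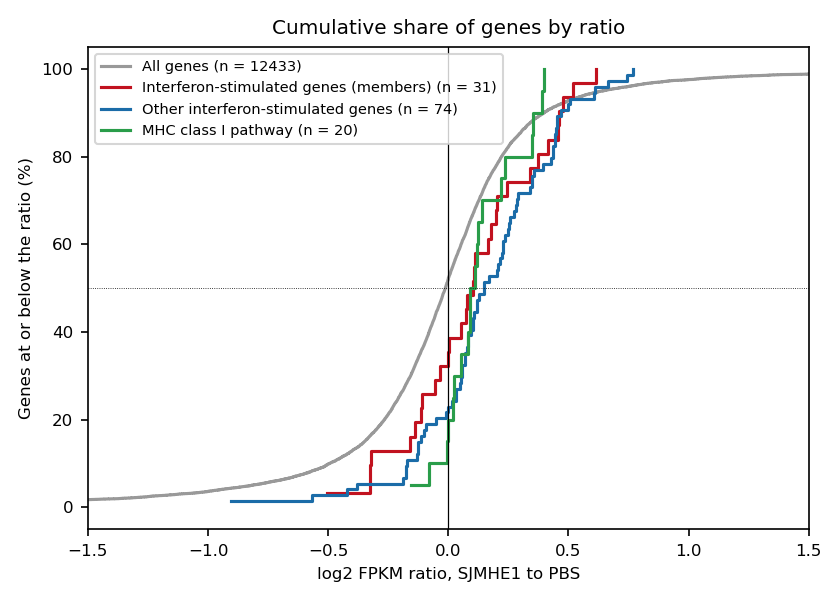
Cumulative share of genes (vertical axis, percent) at or below a given log2 FPKM ratio of SJMHE1 to PBS (horizontal axis), for all 12433 genes that passed the filter (grey), the 31 interferon-stimulated genes (red), 74 other interferon-stimulated genes (blue) and 20 genes of the MHC class I pathway (green). The 3 interferon curves cross the 50% line at medians of 0.10, 0.15 and 0.10, to the right of the curve of all genes at -0.01, and lie close to it at the upper right.

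The genes covered a wide range of expression. In PBS, 12 of the 36 had an FPKM of at least 10, 18 had from 1 to under 10, and 6 were under 1. The median FPKM was 5.45 in PBS and 5.81 in SJMHE1, near the 6.24 of all genes that passed the filter in PBS. The highest was Ifi27l2a at 49.2 and 49.3, a small membrane protein, and the transcription factor Irf1 and the TRIM protein Trim30a came next. The lowest were Iigp1, Oasl2 and Ifit1. Counts ran from 40 to 9728 reads, so the intervals were widest for Ifit1, Iigp1 and Oasl2 and narrowest for Parp14.

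**Figure D2:**
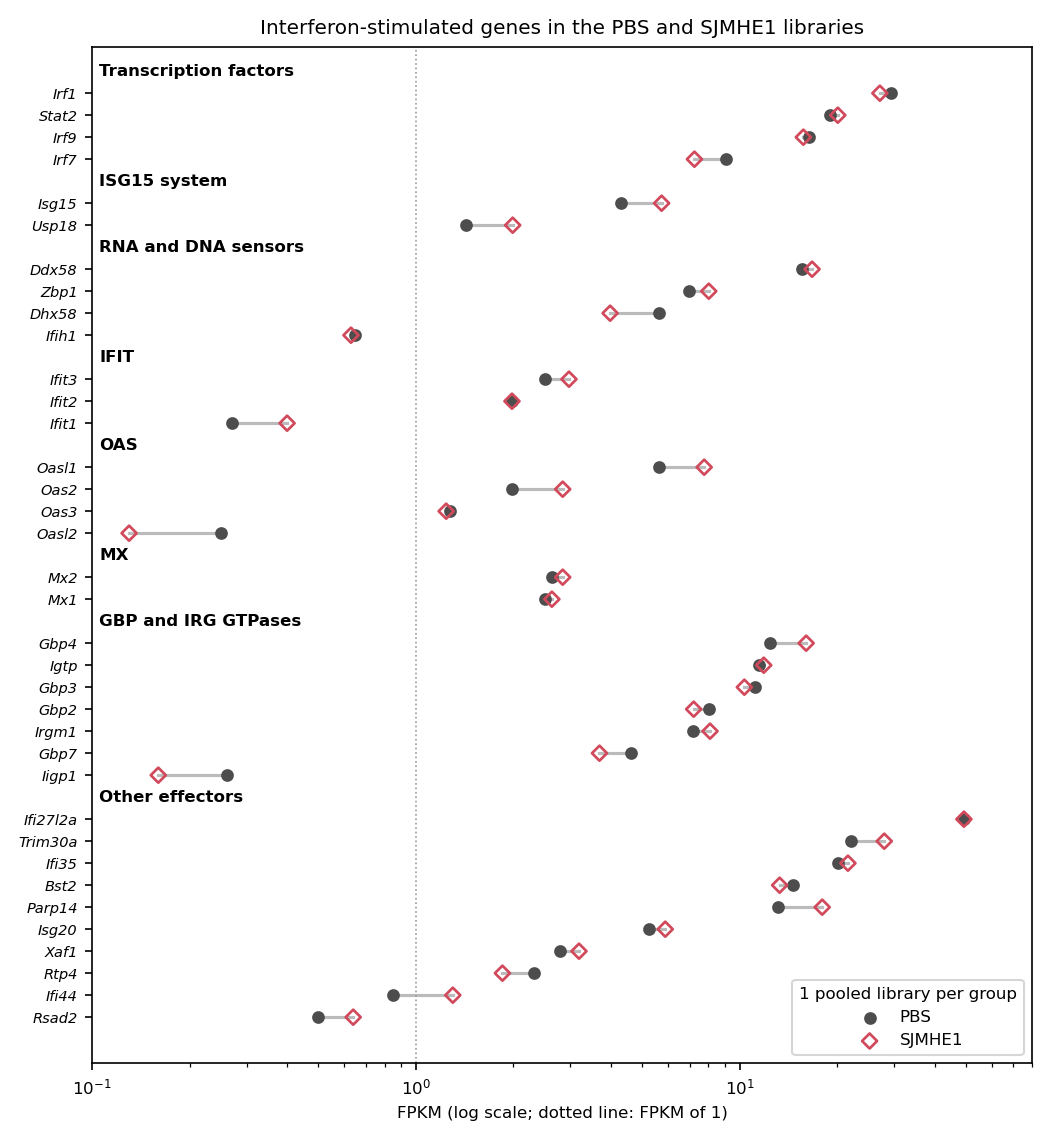
FPKM on a log axis for each of the 36 genes in the PBS library (filled circles) and in the SJMHE1 library (open diamonds), grouped by role and ordered by the PBS value, with a dotted line at an FPKM of 1. The circle and diamond of most genes lie close together, from Ifi27l2a at 49.2 and 49.3 down to Iigp1 at 0.26 and 0.16, and Ifit1, Oasl2, Iigp1, Rsad2 and Ifih1 lie to the left of the dotted line in both libraries.

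**Figure D3:**
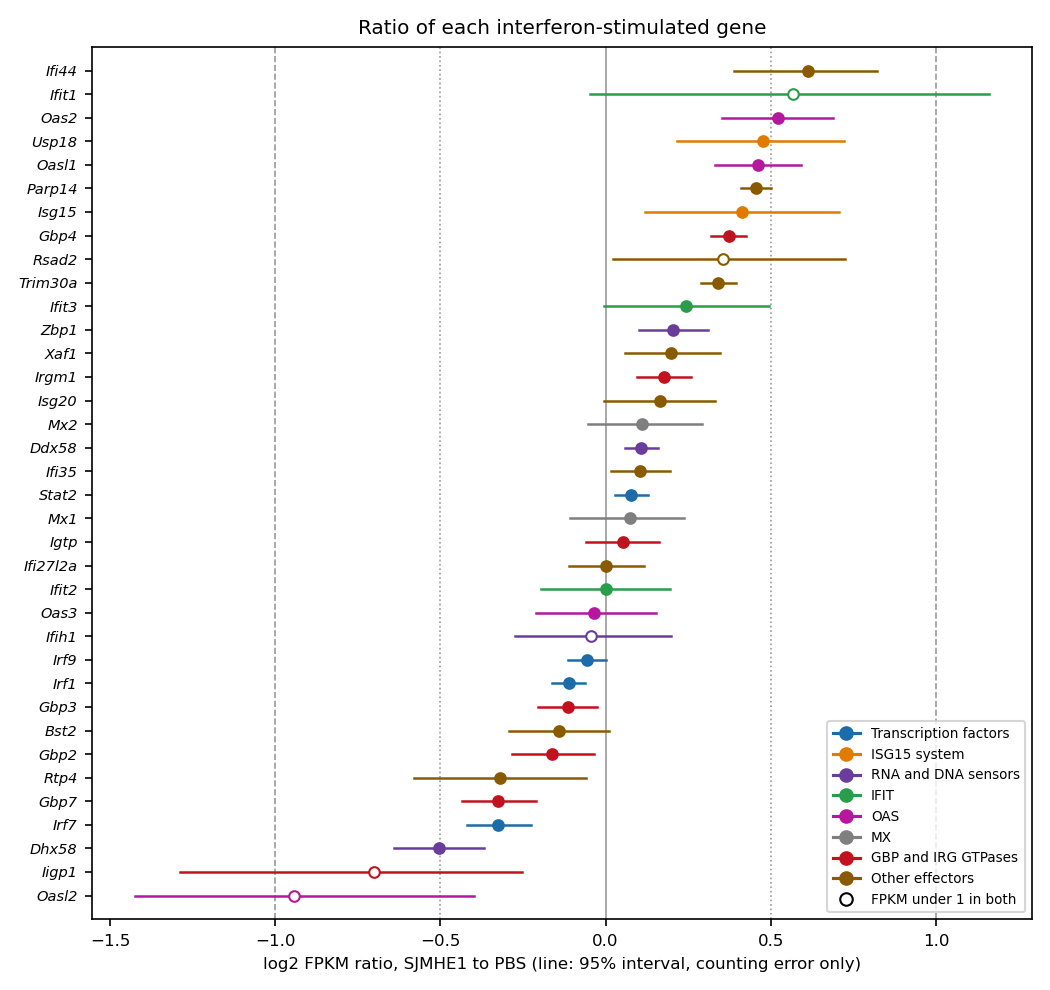
log2 FPKM ratio of SJMHE1 to PBS (horizontal axis) for each of the 36 genes, ordered by ratio and coloured by role, with a line for the 95% interval from the counts; open circles had an FPKM under 1 in both libraries. The ratios of the genes that passed the filter run from 0.61 for Ifi44 to -0.51 for Dhx58, all between the dashed lines at -1 and 1.

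Few reads came from the interferon genes themselves. Of 21 interferon genes searched, 4 had a row in the table. Ifng, which encodes interferon-γ, had an FPKM of 1.27 in PBS (91 counts) and 0.37 in SJMHE1 (29 counts), a log2 ratio of -1.78 (interval -2.39 to -1.11). Ifnk had 0 counts in PBS and 5 in SJMHE1, Ifnz had 0 and 1, and Ifnab had 0 in both. The type I interferon genes with a row thus had at most 5 reads in a library, and the genes with no row were not analysed here. The lower Ifng value stood beside the lower T cell sum (45.3 and 11.7) and NK cell sum (14.7 and 6.72), which are the cells known for making it. Their part was not tested.

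Receptors and kinases were at near-equal levels in both libraries, and the largest differences of their list were those of Socs1 and Socs3. Of 24 listed genes, 23 passed the filter, with 10 above 0 (43.5%, against 47.7% of all genes), 13 below and a median of -0.01. Ifnar1 was at an FPKM of 21.0 and 19.7, Ifnar2 at 11.0 and 11.2, Ifngr1 at 21.6 and 21.3, and Ifngr2 at 14.3 and 14.9. Of the kinases, Jak1 was at 87.0 and 95.5, Jak2 at 28.6 and 28.9, and Tyk2 at 13.5 and 13.4. The largest log2 ratio among these 7 genes was that of Jak1, 0.13. Ptpn6, the phosphatase SHP-1, was the highest of the list at 211 and 264 (log2 ratio 0.32), followed by the B cell and plasma cell factor Irf4 at 137 and 106 (log2 ratio -0.37). No gene of the list was past 0.5 upward, against 7.28% of all genes. Past 0.5 downward were 2 (8.70%, against 9.82%), both of them feedback inhibitors of JAK and STAT signalling. Socs1 was at 1.19 in PBS (191 counts) and 0.40 in SJMHE1 (70 counts), a log2 ratio of -1.57 (interval -1.95 to -1.13). Socs1 passed the filter through the PBS library alone. Socs3 was at 12.6 and 6.61 (2001 and 1111 counts), a log2 ratio of -0.93.

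Of the 4 transcription factors, Stat2 was slightly higher and the other three lower in SJMHE1, and Stat2 and Irf9 are parts of the complex that binds the ISRE. Stat2 was at an FPKM of 19.1 in PBS and 20.1 in SJMHE1 (6199 and 6923 counts), a log2 ratio of 0.08 (interval 0.03 to 0.13). Irf9 was at 16.4 and 15.7 (4840 and 4925 counts), a log2 ratio of -0.06. Irf1, which responds early to interferon-γ and is itself a factor for class I genes, was at 29.3 and 27.1, a log2 ratio of -0.11 (interval -0.16 to -0.06). Irf7, which amplifies the production of type I interferon, showed the largest difference of the 4 factors on the list. It was at 9.08 in PBS (1887 counts) and 7.25 in SJMHE1 (1596 counts), a log2 ratio of -0.32 (interval -0.42 to -0.23). Irf7 is known to be high in plasmacytoid dendritic cells, whose marker sum was 13.6 in PBS and 10.4 in SJMHE1 with Smim5 going the other way, and the part of these cells in its ratio was not tested.

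Sensors of foreign nucleic acid went in both directions. Ddx58 encodes RIG-I, which detects RNA with a 5′ triphosphate. It was at an FPKM of 15.5 and 16.7 (6015 and 6861 counts), a log2 ratio of 0.11 (interval 0.06 to 0.16). Zbp1, a sensor of Z-form nucleic acid that can start cell death, was at 6.97 and 8.03, a log2 ratio of 0.20 (interval 0.10 to 0.31). Dhx58 encodes LGP2, which tunes signalling by RIG-I and MDA5, and it had the lowest ratio of the 31 genes. It was at 5.65 in PBS (1017 counts) and 3.98 in SJMHE1 (759 counts), a log2 ratio of -0.51 (interval -0.64 to -0.37). An antisense gene, Dhx58os, overlaps it and had 29 and 9 counts of its own. Ifih1, which encodes MDA5, was low at 0.65 and 0.63, with an interval from -0.28 to 0.20.

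Downstream of the sensors, 18 of 21 listed genes of the induction pathway passed the filter. Above 0 were 10 (55.6%, against 47.7% of all genes) and below it 8, with a median of 0.09. Mavs, the mitochondrial adaptor of RIG-I and MDA5, was the only one past 0.5 (5.56%, against 7.28% of all genes). It was at 11.2 in PBS (2055 counts) and 17.0 in SJMHE1 (3303 counts), a log2 ratio of 0.60 (interval 0.52 to 0.68). Unc93b1, which carries the nucleic acid sensing Toll-like receptors to endosomes, was the highest at 138 and 162 (log2 ratio 0.23), followed by the kinase Irak1 at 30.8 and 28.2 (-0.13). Of the sensors that Unc93b1 serves, Tlr7 was at 7.32 and 8.93 (log2 ratio 0.29), Tlr9 at 13.9 and 15.5 (0.15) and Tlr3 at 1.36 and 1.2 (-0.18). The lowest ratio was that of the adaptor Myd88 at 15.2 and 12.4 (-0.29).

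The ISG15 system was higher in SJMHE1 for both of its genes. Isg15 encodes a ubiquitin-like protein that is joined to other proteins during an interferon response. It was at an FPKM of 4.31 in PBS (167 counts) and 5.74 in SJMHE1 (235 counts), a log2 ratio of 0.41 (interval 0.12 to 0.71). Usp18, which removes ISG15 and also restrains the type I receptor, was at 1.43 and 1.99 (222 and 325 counts), a log2 ratio of 0.48 (interval 0.22 to 0.72).

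The IFIT proteins bind viral RNA and block its translation, and their genes were low in both libraries. Ifit3 was at an FPKM of 2.51 and 2.97 (241 and 302 counts), a log2 ratio of 0.24 (interval -0.01 to 0.49). Ifit2 was at 1.98 in both (427 and 452 counts). Ifit1 was at 0.27 and 0.40 (40 and 62 counts), a log2 ratio of 0.57 (interval -0.05 to 1.16). The intervals of all 3 genes held 0. In all, 51.2% of the 50-base windows of the Ifit3 transcripts also occur in the neighbouring copy Ifit3b, so reads could be split between them. Ifit3b itself, which did not pass the filter, was at 0.56 and 0.96, a log2 ratio of 0.78 (interval 0.31 to 1.24).

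The OAS enzymes make 2′-5′ oligoadenylates, which activate the RNA-degrading enzyme RNase L. Oas2 was at an FPKM of 1.98 in PBS (485 counts) and 2.84 in SJMHE1 (736 counts), a log2 ratio of 0.52 (interval 0.35 to 0.69). Oas3 was at 1.27 and 1.24 (492 and 510 counts), with an interval from -0.21 to 0.15. The OAS-like genes, Oasl1 and Oasl2, lie side by side on chromosome 5 and went opposite ways. Oasl1, which in mice restrains the translation of Irf7, was at 5.64 and 7.77 (809 and 1179 counts), a log2 ratio of 0.46 (interval 0.33 to 0.59). Oasl2 was at 0.25 and 0.13 (92 and 52 counts), a log2 ratio of -0.94 (interval -1.42 to -0.40), and it did not pass the filter.

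Mx1 and Mx2 encode dynamin-like GTPases that block influenza and related viruses, and many inbred strains carry defective alleles of them. Mx1 was at an FPKM of 2.50 and 2.63 (525 and 581 counts), a log2 ratio of 0.07. Mx2 was at 2.63 and 2.84 (522 and 600 counts), a log2 ratio of 0.11. Both intervals held 0, from -0.11 to 0.24 and from -0.05 to 0.29.

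GTPases of the GBP and IRG families attack microbial vacuoles. Of the 6 members of the list that passed the filter, 3 were above 0 (50%, against 47.7% of all genes) and 3 below. Among other genes of these families that passed it, Gbp2b (-0.19) was below 0. The rest, from Tgtp1 at 0.05 to Gbp10 at 0.77, were above, and Gbp10 passed the filter through SJMHE1 alone. Gbp4 was the highest of the group, at an FPKM of 12.4 in PBS (5103 counts) and 16.1 in SJMHE1 (6993 counts), a log2 ratio of 0.37 (interval 0.32 to 0.42). Irgm1, a regulatory member that guards host membranes, was at 7.17 and 8.10 (2287 and 2736 counts), a log2 ratio of 0.18 (interval 0.10 to 0.26). Igtp, another regulatory member, was at 11.4 and 11.9 (1272 and 1396 counts), with an interval from -0.06 to 0.16.

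On the lower side were 3 genes that stand together on chromosome 3. Gbp7 was at 4.62 in PBS (1424 counts) and 3.69 in SJMHE1 (1206 counts), a log2 ratio of -0.32 (interval -0.43 to -0.21). Gbp2 was at 8.06 and 7.21 (1113 and 1055 counts), a log2 ratio of -0.16 (interval -0.28 to -0.04). Gbp3 was at 11.2 and 10.3 (2008 and 1962 counts), a log2 ratio of -0.11 (interval -0.21 to -0.03). All 3 intervals lay below 0. Iigp1, an effector of the IRG family, was at 0.26 and 0.16 (85 and 53 counts), a log2 ratio of -0.70 (interval -1.29 to -0.25), and it did not pass the filter.

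Of the other effectors, 7 of the 9 that passed the filter were higher (77.8%, against 47.7% of all genes). Among these, Ifi27l2a was higher by less than 0.01 and turned to the lower side with counts scaled to library totals. Ifi44, a cytoplasmic protein with antiviral activity, had the highest ratio of the 31 genes from a low level, and passed the filter through SJMHE1 alone. It was at an FPKM of 0.85 in PBS (288 counts) and 1.3 in SJMHE1 (463 counts), a log2 ratio of 0.61 (interval 0.39 to 0.82). Parp14, an ADP-ribosyltransferase that also takes part in the IL-4 response of B cells through Stat6, was at 13.1 and 18.0, a log2 ratio of 0.46. With 6699 and 9728 counts, its interval was the narrowest of the 36 genes, from 0.41 to 0.50. Trim30a, which restrains Toll-like receptor signalling, was at 22.1 and 28.0 (4983 and 6682 counts), a log2 ratio of 0.34 (interval 0.29 to 0.39).

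Smaller differences in the same direction were found for 3 further genes. Xaf1, a partner of the apoptosis inhibitor XIAP, was at 2.78 and 3.19, a log2 ratio of 0.20 (interval 0.06 to 0.35). Isg20, an exonuclease of viral RNA, was at 5.25 and 5.89, a log2 ratio of 0.17, and its interval held 0 (-0.004 to 0.33). Ifi35 was at 20.1 and 21.6, a log2 ratio of 0.10 (interval 0.01 to 0.19). Rsad2, which encodes viperin, an enzyme that makes a chain-terminating nucleotide, was at 0.50 and 0.64 (119 and 163 counts), a log2 ratio of 0.36 (interval 0.02 to 0.73).

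Ifi27l2a, the most abundant of all, was at 49.2 and 49.3 (1251 and 1327 counts), with an interval from -0.11 to 0.12. The lower members were Bst2 and Rtp4. Bst2 encodes tetherin, which holds budding virus at the cell surface and is a known surface marker of plasmacytoid dendritic cells and plasma cells. It was at 14.7 and 13.3 (727 and 698 counts), a log2 ratio of -0.14 (interval -0.29 to 0.01). Rtp4, a chaperone of receptors that also binds viral RNA, was at 2.31 and 1.85 (270 and 229 counts), a log2 ratio of -0.32 (interval -0.58 to -0.06). The plasmacytoid dendritic cell markers were lower in the same library except for Smim5 (log2 ratio 0.91), and their part in the Bst2 and Rtp4 values was not tested.

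A longer list of 90 other interferon-stimulated genes, which shares no gene with the 37, gave a like picture. Of its genes 74 passed the filter, of which 57 were above 0 and 17 below, 77.0% above against 47.7% of all genes, with a median log2 ratio of 0.15. The counting interval lay above 0 for 46 (62.2%, against 30.9% of all genes) and below 0 for 13 (17.6%, against 34.4%). Past 0.5 upward were 6 genes (8.11%, against 7.28% of all genes), and 2 were past it downward (2.70%, against 9.82%). Gbp10, another guanylate-binding protein, was at an FPKM of 0.85 and 1.45 (log2 ratio 0.77), so it passed the filter through SJMHE1 alone. Ly6a, the surface protein Sca-1, was at 5.97 and 9.99 (0.74). Ifitm1, which keeps viruses from fusing with membranes, was at 2.20 and 3.49 (0.67), Rnf213, a large ubiquitin ligase, at 14.6 and 22.3 (0.61), and Irgm2 at 3.30 and 5.02 (0.61). The 2 lower genes were Slfn1, a restrainer of lymphocyte growth, at 3.93 and 2.10 (-0.90), and Phf11a at 4.05 and 2.73 (-0.57). The most abundant were the lysosomal thiol reductase Ifi30 at 366 and 338 (-0.11) and Shisa5 at 347 and 355 (0.03).

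The MHC class I pathway, which interferon raises in most cells, was higher for 16 of 20 genes and lower for 4, with a median of 0.10. That makes 80% higher, against 47.7% of all genes. No gene was past 0.5, against 7.28% of all genes upward and 9.82% downward. B2m, the shared light chain, was at an FPKM of 1132 and 1232 (log2 ratio 0.12), and the heavy chain H2-D1 was at 493 and 543 (0.14). H2-K1 was at 143 and 183 (0.35) and H2-Q7 at 44.2 and 58.3 (0.40). The lowest ratio was that of the peptide transporter Tap2 at 30.9 and 27.7 (-0.16).

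**Figure D4:**
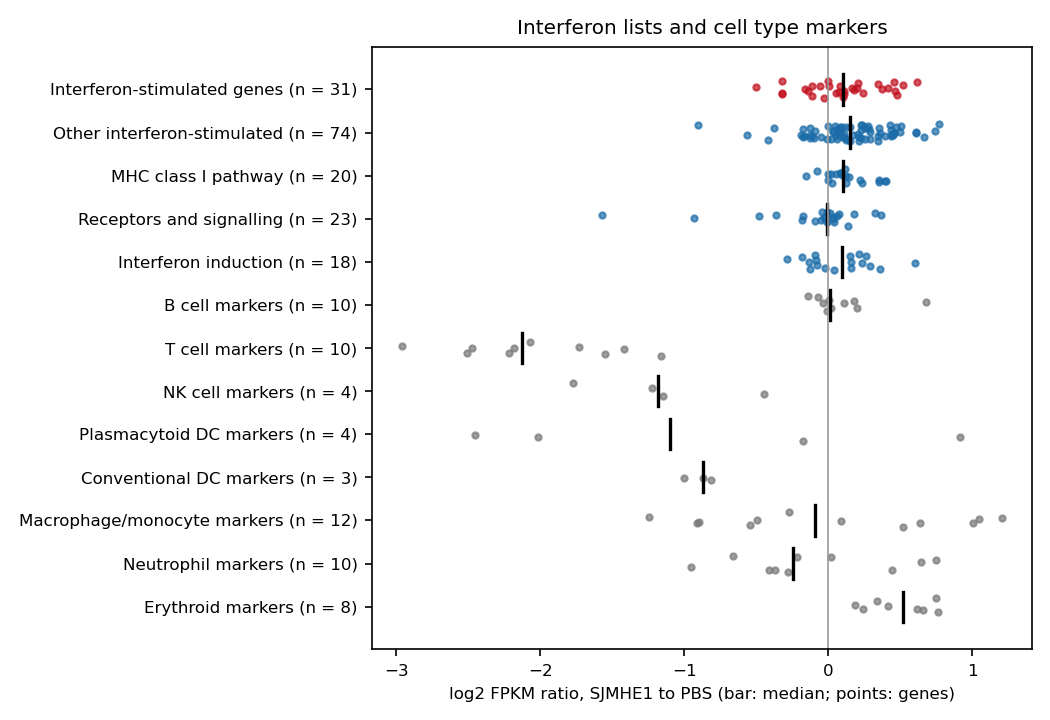
log2 FPKM ratio of SJMHE1 to PBS (horizontal axis) for every gene that passed the filter in each list (points, spread vertically for visibility), with the median as a bar and the number of genes beside the name. The interferon-stimulated lists and the class I pathway lie slightly to the right of 0, with medians of 0.10, 0.15 and 0.10, the T cell markers lie far to the left at -2.13, and all 8 erythroid markers lie to the right. Among the T cell markers, Cd8b1, Cd28, Cd8a, Cd3e and Cd3d passed the filter through PBS alone.

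Many of these genes stand in tandem families, and neighbours within 200 kb, taken from the 37 and the other 90 genes, were set side by side. Of those that passed the filter, 64.5% of the first list and 77.0% of the second were above 0, against 47.7% of all genes. On chromosome 3, in the 142493978 to 142638008 interval of GRCm38, 4 of 5 genes were below 0, namely Gbp7, Gbp3, Gbp2b (-0.19) and Gbp2, while Gbp5 at the edge was above (log2 ratio 0.43). The other GBP family, on chromosome 5 from 105014150 to 105346472, was above 0 for all 4 genes that passed the filter, with Gbp8 at 0.17, Gbp9 at 0.34, Gbp4 at 0.37 and Gbp10 at 0.77. Gbp10 passed the filter through SJMHE1 alone. The other genes listed there, Gbp6 at an FPKM of 0.74 and 0.67 (-0.14) and Gbp11 at 0.21 and 0.13 (-0.69), were below 0 with intervals that held 0. On chromosome 7, from 104244457 to 104507849, all 5 genes around Trim30a that passed the filter were above 0, from 0.12 for Trim12c to 0.45 for Trim30c. On chromosome 11, Irgm1 stood with Tgtp1 (0.05), Ifi47 (0.45) and Tgtp2 (0.50), all above 0, and on chromosome 16 Parp14 stood with Dtx3l (0.44) and Parp9 (0.08), whose proteins form a complex. The OAS genes on chromosome 5 were mixed, with Oas2 above 0, Oas3 and Oas1b (-0.01) just below it, Oas3 turning above 0 with DESeq2 size factors, and Oas1c (-0.38) below.

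**Figure D5:**
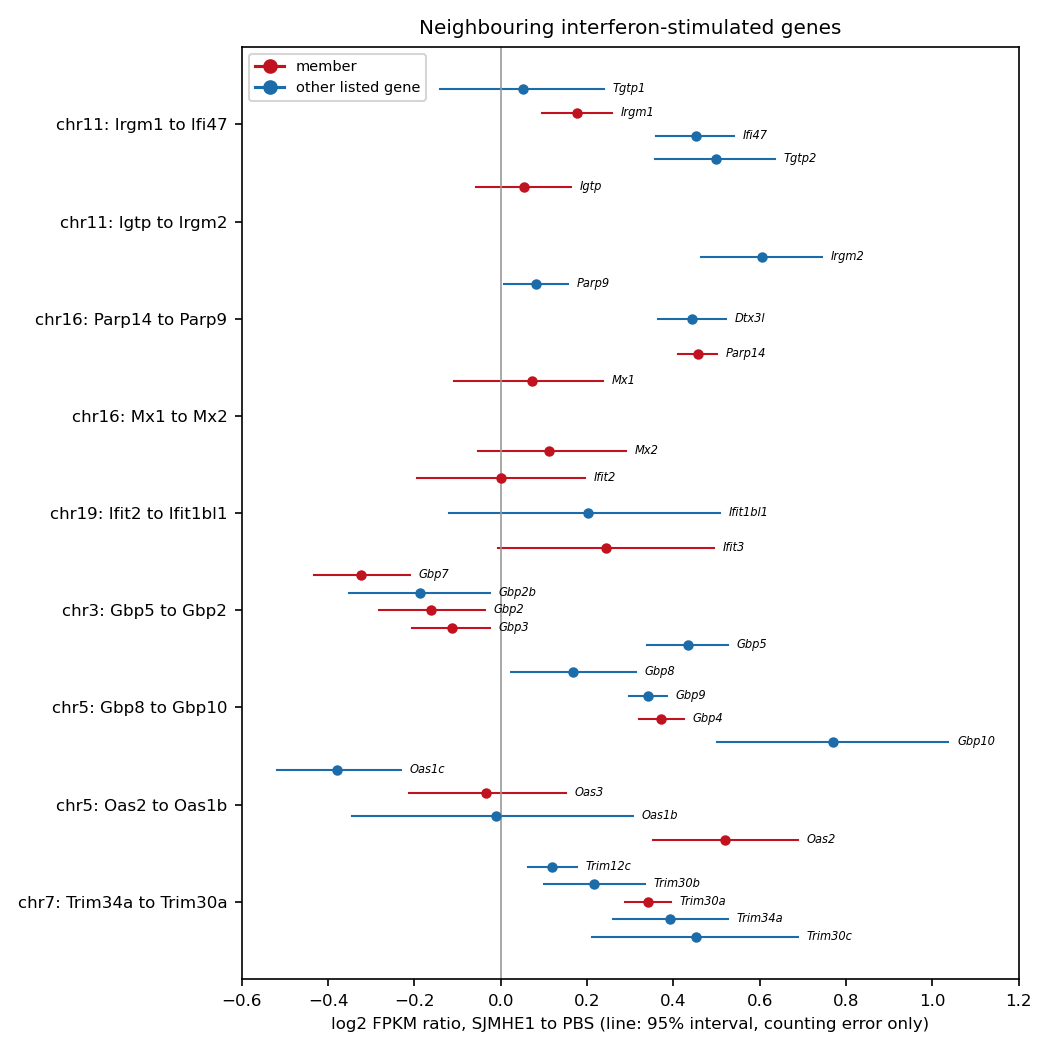
log2 FPKM ratio of SJMHE1 to PBS (horizontal axis) for neighbouring interferon-stimulated genes that passed the filter, 1 row of points per locus, with genes of the list of 37 in red, other listed genes in blue and lines for the 95% intervals from the counts. Of the genes on chromosome 3, 4 of 5 lie to the left of 0, and the 4 GBP genes of chromosome 5 and the 5 TRIM genes of chromosome 7 that passed the filter lie to the right. Of all genes that passed the filter, 47.7% were above 0.

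Neighbours of this kind share sequence, and reads may be divided between them. Igtp overlaps Irgm2 on the same strand over 7974 bases, and 11.8% of its 50-base windows occur in Irgm2, whose ratio (0.61) was larger than that of Igtp (0.05). The shared share of windows was 12.7% for Gbp7, 11.6% for Rtp4, 7.70% for Gbp4 and 5.98% for Trim30a, and 14 of the 36 genes shared none. A share of windows is not a share of reads, and how far the values of these genes were affected was not tested. The mice were BALB/c and the genome is that of C57BL/6J, and the effect of strain differences on these counts was not tested.

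The annotation of the table ties the genes together by function. The term defense response to virus was given to 20 of the 36 genes and to 0.620% of all genes. Of the other genes with that term, 60 of 109 were above 0 (55.0%, against 47.7% of all genes), with a median log2 ratio of 0.03. Other genes annotated to the cellular response to interferon-beta were above 0 for 19 of 28 (67.9%), with a median of 0.23. Those annotated to the response to interferon-gamma were above 0 for 22 of 57 (38.6%), with a median of -0.09. The members with these terms were above 0 for 3 of 6 (median -0.03) and for 2 of 5 (median -0.11). These terms share genes with the lists above, so they are not separate measurements.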

How the data were processed

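Spleen B cells of the 3 groups were profiled by rRNA-depleted RNA-seq, 1 library per group. The authors deposited 1 table with whole-number read counts per gene, not normalized, and with FPKM values scaled to gene length and library size and rounded to 2 decimals, so that ratios of the lowest genes carry rounding error. The submitters' processing notes name bcl2fastq 2.0, HISAT2, StringTie, DESeq2, limma and mm10 without roles, and whether counting used strand is not given in the sources used here. The names of 2 value columns matched no sample, and these columns were not used, so comparisons with Control were not made.

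The measure was the log2 ratio of deposited FPKM, SJMHE1 to PBS, without a pseudocount. Its interval was taken from the 2 counts by the exact Clopper-Pearson method at the 95% level and shifted to the FPKM scale. It covers counting error only, since 1 pooled library per group gives no replicate error. Because reads are not independent molecules, it can be too narrow even for that. Its calculation was tested on simulated data. A test for counts needs replicates and could not be fitted. The filter kept genes that reached an FPKM of 1 in either library and were not at 0 in the other. The genes named are all 37 members, genes of the other interferon lists past a log2 ratio of 0.5 (at most 5 in each direction), the 2 most abundant of each list and the highest marker of each cell type. Other genes named, such as the receptors, Tlr7, H2-K1 and the neighbours, were chosen after their values were seen. The members and lists were chosen with earlier results of these data known.

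Alternatives were pseudocounts of 0.1 and 1, other filters, counts scaled to library totals, by TMM (edgeR 4.0.16) or by DESeq2 1.42.0 size factors, centring on the median, and protein-coding genes alone. Promoters came from RefSeq on GRCm38.p6, and shared windows and exons from GENCODE M21, in which 31 of the 36 genes have the table's coordinates. Python 3.11.15 (numpy 2.4.6, pandas 2.3.3, scipy 1.17.1, matplotlib 3.10.9) and R 4.3.3 were used. Values of some listed genes are not reported here.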

Additional observations from a re-analysis of the deposited data

How the results depend on the processing

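Over the alternatives the median log2 ratio of the members stayed between 0.08 (pseudocount of 1) and 0.15 (DESeq2 size factors), and no member reached 1 in either direction in any of them. The number of members above 0, 20 of 31 in the report, was 13 of the 20 genes left with a minimum FPKM of 5 and from 19 to 22 otherwise, and their share lay between 61.1% and 71.0% while that of all genes lay between 45.0% and 54.8%. The number above 0.5 was 2 in the report. It was 0 with a pseudocount of 1 (4.16% of all genes were past it) and 1 with a pseudocount of 0.1 (6.84%). It was 1 where both libraries had to reach an FPKM of 1 (4.83%) and 0 with a minimum FPKM of 5 (3.45%). With DESeq2 size factors it was 5 of 31, against 8.20% of all genes. The number below -0.5, 1 in the report, was 0 with a pseudocount of 1 (5.84% of all genes) or 0.1 (9.33%). It was 0 with TMM (8.96%), DESeq2 (8.54%) or median centring (9.41%), and 3 with no filter (19.9%). Of the values of single members, 330 kept to their counting interval and 3 moved, all with a pseudocount of 1: Ifi44 to 0.31, Oasl2 to -0.15 and Iigp1 to -0.12. Other filters leave the ratio of a single gene unchanged, so their values among the 330 could not move. These were 36 with no filter, 30 and 20 with the stricter FPKM filters and 31 with protein-coding genes alone. Ifit2, Ifi27l2a, Oas3 and Ifih1, whose intervals hold 0, were the members that changed sides of 0 with the scaling of the counts.

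No paired analysis was possible because a group holds 1 library, and for the same reason no library was left out. Spread between mice, cultures or sequencing runs is not measured, and no difference here is set against it. Depth limits the lowest members most, from 40 counts for Ifit1.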
